A study of Caenorhabditis elegans with 12 samples.

Results

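Chromatin accessibility in body-wall muscle of larvae that lack only *met-2* was compared with that of wild-type (WT) larvae. Open chromatin was measured by ATAC-seq, in which the Tn5 transposase cuts accessible DNA, and reads were counted in 51519 promoter windows, most of which span 1700 bp around a transcription start site. All windows with a count in at least 1 of the 3 *met-2* and 3 WT libraries were used, 51278 of the 51519. The *met-2* animals carry the allele *met-2(n4256)* on chromosome III, and the WT is labelled N2 (Bristol). The genotypes *met-2(n4256) set-25(n5021)* and *set-25(n5021)*, with 3 libraries each, were used to measure the loss of *met-2* where *set-25* is also absent. All 12 libraries came from muscle of L3 larvae synchronized at L1. The cells were sorted by a red fluorescent *myo-3* promoter reporter of the *gwIs4* array according to the study's methods, which the labels do not mention. The labels list 3 libraries per genotype but state fewer independent replicates than that, so p-values measure the spread between these libraries. Differences between the strains other than the named alleles cannot be told apart from effects of the alleles.

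MET-2 is the *Caenorhabditis elegans* homolog of SETDB1 and deposits mono- and dimethylation on lysine 9 of histone H3 (H3K9me), a mark of heterochromatin that is found mostly on chromosome arms and over repeats. SET-25 carries out trimethylation of the same residue, and the double mutant is used as an animal without H3K9me. Heterochromatic DNA is held at the nuclear periphery and is generally less accessible to transcription factors and to Tn5. In a population of sorted cells, sources of a higher count include more cells with an open site and more cuts per cell, which cannot be told apart. The number of copies of a window's DNA in each strain also enters the count and was not measured.

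The *met-2* libraries held 73007383, 105547683 and 83303009 counts over all windows, and the WT libraries 50148450, 79463030 and 73325386. No pair of libraries of the same genotype agreed within sampling noise (chi-square of 3.22 to 8.22 per window), and their Pearson's r across windows on the log2 scale was between 0.965 and 0.982. How far signal stands above background was described by the share of autosomal counts in the 5% of windows with the highest level in *set-25*. This signal index was 9.782%, 10.002% and 8.873% in *met-2*, against 9.310%, 9.986% and 9.080% in WT, so that the values overlapped (difference of 0.0938 percentage points, exact two-sided permutation p = 0.9, where 3 against 3 libraries cannot go below 0.1). It was 10.1%, 11.3% and 10.4% in *met-2 set-25*, above all *set-25* libraries (9.12%, 9.15% and 9.12%).

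In *met-2*, a difference from WT beyond the spread of the replicates was called at few promoter windows. Gains were small at loci such as *F08A8.9* and *C01A2.2*, and some small gains, such as that at *sup-9*, depended on single libraries. Larger gains were found at loci such as *phkb-1* and *srd-74*, where no gain was called in the absence of *set-25*. At *phkb-1*, however, *set-25* and *met-2 set-25* stood near the level of *met-2*, and WT alone was set apart. At *srd-74*, *met-2 set-25* was near WT (log2FC of -0.06 over WT). Losses were mostly in repeated genes. The median normalized count, which is the count scaled to the mean library total, was 1509 in *met-2* and 1512 in WT. The log2 fold change (log2FC) of *met-2* over WT had a median of -0.00057 and lay within 0.2 of 0 at 99.4% of the windows, and its median standard error (SE) was 0.063. At a false discovery rate (FDR) below 0.01 with edgeR's quasi-likelihood test, 36 windows (0.0702% of those tested) were higher in *met-2* and 16 (0.0312%) were lower. An unadjusted p below 0.05 was found for 1188 higher and 1507 lower windows, together 5.26% of the windows, where 2563.9 windows make up 5%. All 36 higher and all 16 lower windows were without overlap between the *met-2* and WT libraries, a pattern that 4.22% of all windows showed on the higher and 5.49% on the lower side. Merged where they overlapped or lay within 2000 bp of each other, the called windows formed 16 higher and 7 lower loci. The higher windows held 36 distinct sets of counts but the lower windows only 7, because several windows of repeated genes were given the same counts.

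**Figure D1:**
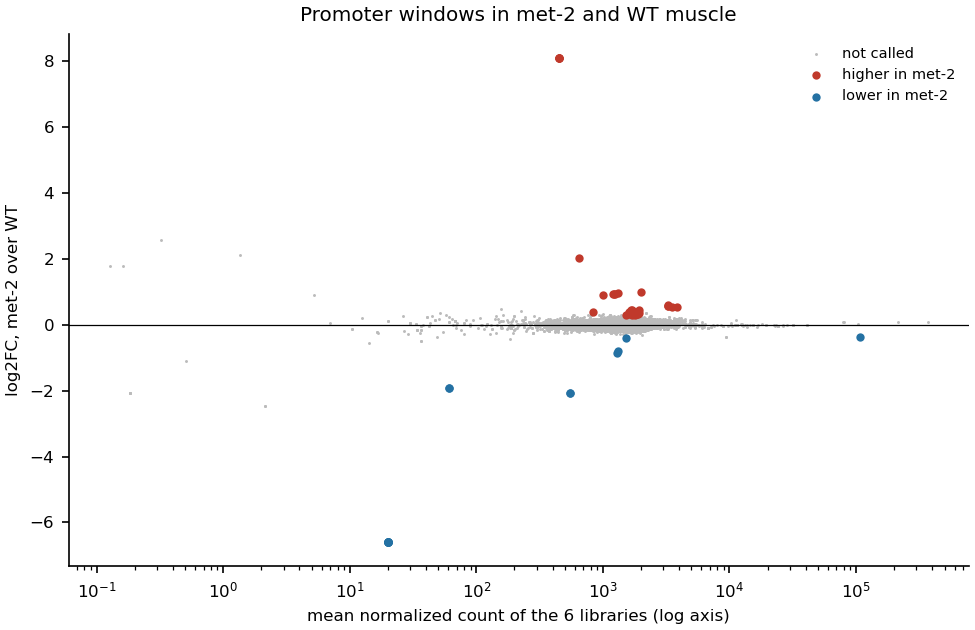
Each point is 1 of the 51278 promoter windows, with the mean normalized count of the 6 *met-2* and WT libraries on a logarithmic x axis and the log2FC of *met-2* over WT on the y axis. The 36 windows higher and 16 windows lower in *met-2* are coloured, and most windows lie close to 0.

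Of the 36 higher windows, 18 were also higher and 5 lower in *met-2 set-25* than in *set-25* at FDR below 0.01, a comparison in which 7.64% of all windows were higher and 3.77% lower. The windows are grouped by whether an interaction was called. This split uses the *set-25* background itself, so the values there are a description and no further support. Of the 36 windows, 20 at 12 loci showed no called interaction, meaning that the effect of *met-2* loss did not pass the test for a difference with and without *set-25*. These gains were small, with log2FC of 0.28 to 0.45 (median 0.35) at a median WT level of 1584 normalized counts. In the *set-25* background these 20 windows, which include the 18, had log2FC of 0.11 to 0.63 (median 0.47). The other 16 higher windows, at 4 loci, and 15 of the 16 lower windows showed an interaction, which 0.144% of all windows did. The 15 lower windows hold 6 distinct sets of counts. The interaction includes the *met-2* over WT difference by which the windows were called, so a higher share is built in. The 5 windows that were lower in *met-2 set-25* are among the 16 higher windows with an interaction. None of the lower windows was also lower in *met-2 set-25* than in *set-25*.

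Among the gains without a called interaction, the *F08A8.9* locus on chromosome I had the smallest p. Its window at chr I:12954432-12956131 (ce10, as are all coordinates here), the promoter of a non-coding RNA, had 1995, 1923 and 1893 normalized counts in *met-2*, against 1447, 1390 and 1436 in WT. All *met-2* libraries stood above all WT libraries, with a log2FC of 0.44 (SE 0.060, adjusted p = 9.6e-07 from edgeR). In the absence of *set-25* the window had 1906, 2310 and 1961 normalized counts in *met-2 set-25*, against 1517, 1467 and 1489 in *set-25* (log2FC 0.47, adjusted p = 9.8e-08). The overlapping windows of the protein-coding gene *F08A8.8* and of *F08A8.10* share reads with it and had log2FC of 0.45 and 0.35. Of the other windows within 20 kb, 20 were not called, and their log2FC was between -0.20 and 0.07.

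The second locus by p lies in a piRNA cluster on chromosome IV. piRNAs are short RNAs that guide the Piwi protein PRG-1 to foreign transcripts in the germline, and their genes stand close together in clusters on this chromosome. The window of *21ur-7887* at chr IV:16030963-16032662 had 1876, 1886 and 1685 normalized counts in *met-2*, against 1418, 1343 and 1398 in WT. Its log2FC was 0.39 (SE 0.061, adjusted p = 3.2e-05), and 0.48 in the *set-25* background (adjusted p = 5.7e-08). The windows of *21ur-8898*, *21ur-6369*, *21ur-5975*, *21ur-5303* and *21ur-3180* overlap it and were called as well, with log2FC between 0.31 and 0.37. A further 213 windows within 20 kb were not called and had a median log2FC of 0.04, with a highest value of 0.29. The called windows spanned 2757 bp of the cluster. Among all 13395 piRNA windows, these 6, which overlap and share reads, were the only ones called (0.0448%, against 0.0702% higher of all windows), and the median log2FC was 0.01.

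Gains were also seen in a stretch of chromosome I with the protein-coding genes *C01A2.2* and *mihp-1*, which formed neighbouring loci. *C01A2.2* at chr I:13396539-13398238 had 2315, 2414 and 1955 normalized counts in *met-2*, against 1599, 1645 and 1687 in WT (log2FC 0.44, SE 0.072, adjusted p = 0.00013). The difference was larger in the *set-25* background, at 0.63, but the interaction did not pass the test (adjusted p = 0.24). *mihp-1*, at chr I:13400938-13402637, had 2148, 2179 and 1836 normalized counts in *met-2*, against 1685, 1561 and 1618 in WT (log2FC 0.34, SE 0.064, adjusted p = 0.0016). In both genes replicate 3 was the lowest of the *met-2* libraries, which is also the library with the lowest signal index. The call at *C01A2.2* was lost without *met-2* replicate 2 (adjusted p = 0.012). That at *mihp-1* was lost without *met-2* replicate 1 or 2 (adjusted p = 0.050 and 0.070) and without WT replicate 2 or 3 (0.036 and 0.015).

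*sup-9* on chromosome II encodes a potassium channel of the TWK type that acts in body-wall muscle to set its excitability. The *sup-9* window at chr II:2686839-2688538 had 2098, 2155 and 1742 normalized counts in *met-2*, against 1496, 1732 and 1470 in WT, so that *met-2* replicate 3 and WT replicate 2 nearly met. The log2FC was 0.35 (SE 0.069, adjusted p = 0.0041), and 0.62 in the *set-25* background (adjusted p = 1.8e-09), where *met-2 set-25* had 2408, 2623 and 2449 normalized counts and *set-25* had 1596, 1587 and 1680. The interaction had an adjusted p of 0.083. The overlapping window of *nspf-1*, chosen after its values were seen, had a log2FC of 0.35 that did not pass the threshold (adjusted p = 0.024). The 16 uncalled windows within 20 kb of *sup-9* had a median log2FC of 0.08, from -0.03 to 0.35. The call at *sup-9* was lost with TMM scaling (adjusted p = 0.015), in a fit of only the 6 *met-2* and WT libraries (0.011), without WT replicate 1 or 3 (0.10 and 0.15) and without *met-2* replicate 1 or 2 (0.11 and 0.20).

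Further gains were at promoters annotated as non-coding RNAs, namely *W10G11.23*, *Y53C10A.20*, *Y54G2A.65* and *F10E7.12*. *W10G11.23* at chr III:1680006-1681705 had 2201, 2124 and 1919 normalized counts in *met-2*, against 1597, 1727 and 1410 in WT (log2FC 0.40, SE 0.068, adjusted p = 0.00024). *Y53C10A.20* at chr I:11995467-11997166 had 1791, 1668 and 1599 in *met-2*, against 1408, 1334 and 1339 in WT (log2FC 0.31, SE 0.059, adjusted p = 0.0025). *Y54G2A.65* at chr IV:2799980-2801679 had 2247, 2221 and 1909 in *met-2*, against 1536, 1808 and 1703 in WT (log2FC 0.33, SE 0.067, adjusted p = 0.0058). In all 3, the libraries of the genotypes stood apart by less than the range within a genotype. *F10E7.12* at chr II:7122038-7123737, with log2FC of 0.29, was just inside the threshold (adjusted p = 0.0097) and had 0.60 in the *set-25* background. Its interaction had an adjusted p of 0.034.

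The other protein-coding gains were at *R12B2.7*, *srh-170* and *ncs-6*. *R12B2.7* at chr III:5813501-5815200 stands beside *sma-4*, which encodes the co-Smad of the body-size BMP pathway. It had 2235, 2283 and 1989 normalized counts in *met-2*, against 1479, 1726 and 1855 in WT (log2FC 0.36, SE 0.070, adjusted p = 0.0038). The overlapping *sma-4* window, chosen after its values were seen, had a log2FC of 0.27 (adjusted p = 0.11). *srh-170*, of a family of G-protein-coupled chemoreceptors, had the lowest WT level among the 20 windows, with 963, 947 and 902 normalized counts in *met-2*, against 773, 739 and 663 in WT (chr V:15388654-15390353, log2FC 0.37, SE 0.074, adjusted p = 0.0041). *ncs-6*, of the neuronal calcium sensor family, had 1849, 1773 and 1973 in *met-2*, against 1578, 1548 and 1474 in WT (chr II:3528320-3530019, log2FC 0.28, SE 0.059, adjusted p = 0.0097). *srh-170* and *ncs-6* were the ones among the 20 windows that did not pass in the *set-25* background, with log2FC of 0.24 at *srh-170* (adjusted p = 0.013) and 0.11 at *ncs-6* (adjusted p = 0.13).

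**Figure D2:**
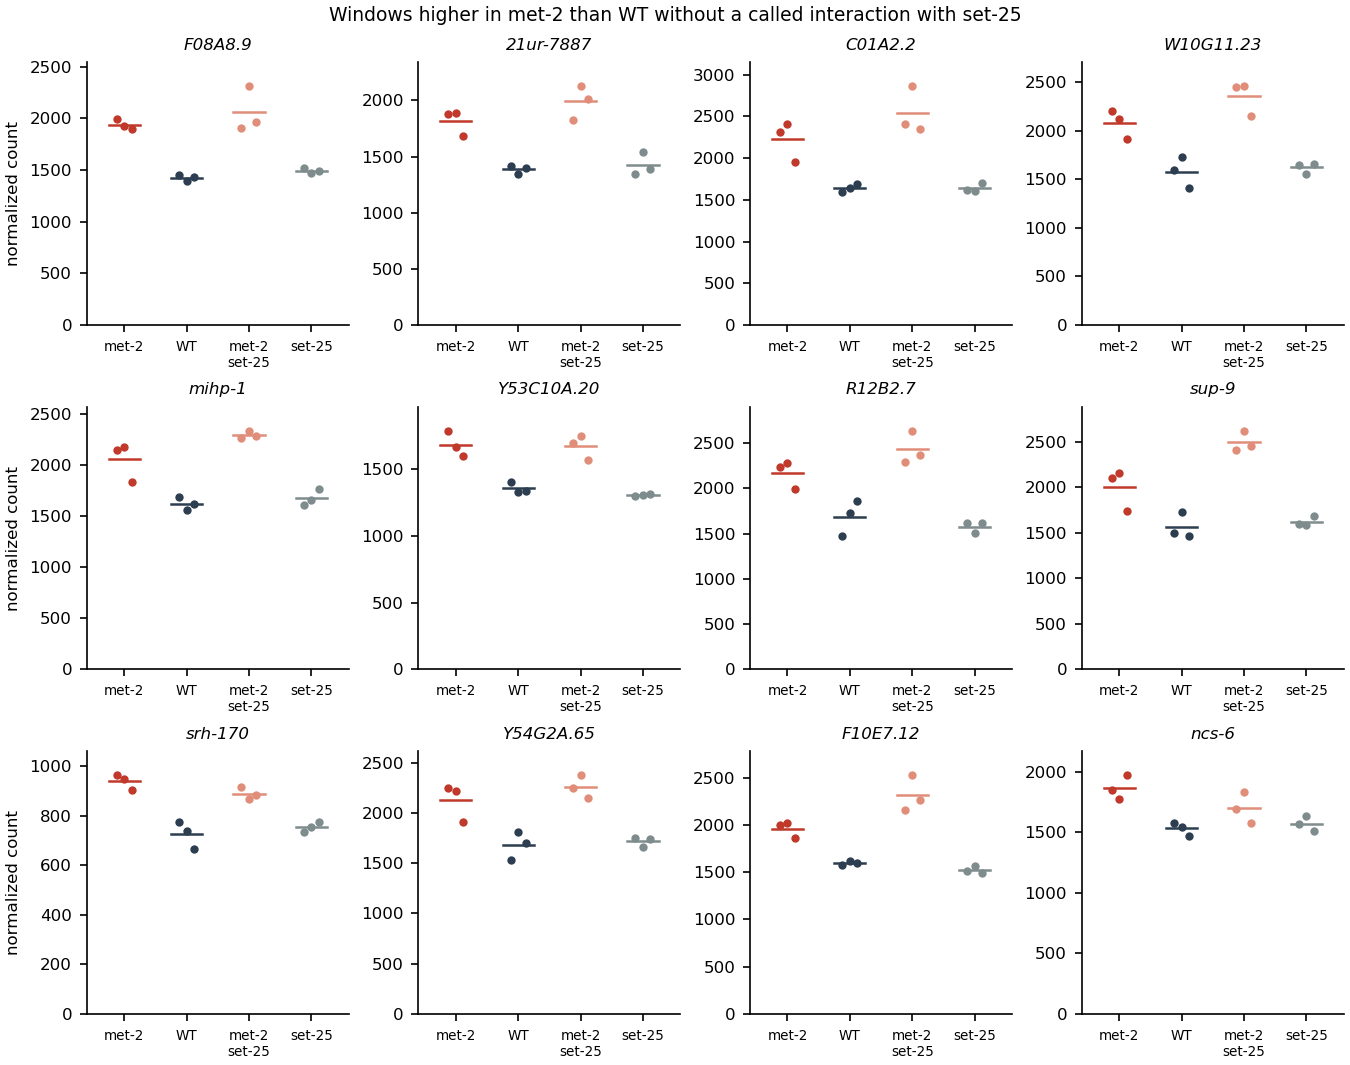
Normalized counts of the 12 named windows that were higher in *met-2* than in WT without a called interaction with *set-25*. Points are the 3 libraries of each genotype, lines are their means, and y axes start at 0, and in each panel the *met-2* libraries lie above the WT libraries, at log2FC of 0.28 to 0.44.

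Many of these calls depended on single libraries. *met-2* replicate 3 was the lowest *met-2* library at the gains described above except *ncs-6* and *21ur-3180*. The median log2 ratio to the WT mean over the 20 windows was 0.40, 0.40 and 0.27 in *met-2*, against 0.04, -0.04 and 0.01 in WT. Without *met-2* replicate 1 or replicate 2, 24 windows were higher, and without *met-2* replicate 3, 47 were. The number also higher in *met-2 set-25* than in *set-25* was 8, 7 and 29 without *met-2* replicate 1, 2 and 3, and 11 without WT replicate 3. Calls at *W10G11.23* were lost without WT replicate 3 (adjusted p = 0.045) or *met-2* replicate 1 (0.012). *Y53C10A.20* lost it without WT replicate 2 or 3 (0.034 and 0.029) or *met-2* replicate 1 or 2 (0.14 and 0.018). *R12B2.7* lost it without WT replicate 1 (0.27) or *met-2* replicate 1 or 2 (0.066 and 0.099), with TMM scaling (0.014) and in the fit of 6 libraries (0.020). *srh-170* lost it without WT replicate 2 or 3 (0.013 and 0.21) or *met-2* replicate 1 or 2 (0.067 and 0.044) and in the fit of 6 libraries (0.022). *Y54G2A.65* lost it without WT replicate 1 or 3 (0.25 and 0.029), *met-2* replicate 1 or 2 (0.16 and 0.13) or *set-25* replicate 2 or 3 (0.012 and 0.011), with TMM scaling (0.019) and in the fit of 6 libraries (0.032). *F10E7.12* lost it without any 1 WT library (0.036 to 0.10), *met-2* replicate 1 or 2 (0.12 and 0.15), any 1 *set-25* library (0.017 to 0.018) or *met-2 set-25* replicate 3 (0.011), and also with TMM scaling (0.028), edgeR's filter on low counts (0.011), 1 window per distinct set of counts (0.011) and in the fit of 6 libraries (0.016). *ncs-6* lost it without any 1 WT library (0.019 to 0.17), *met-2* replicate 1 or 3 (0.052 and 0.13), any 1 *set-25* library (0.011 to 0.012) or *met-2 set-25* replicate 1 (0.016), and also with TMM scaling (0.014), 1 window per distinct set of counts (0.011) and in the fit of 6 libraries (0.022). The log2FC of none of the named loci changed sign under any alternative. Adding the signal index to the fit gave 55 higher windows in *met-2*, of which 5 were also higher in *met-2 set-25*. In that background the index differed between the genotypes without overlap, and its part in these counts was not tested.

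The remaining gains showed an interaction. On chromosome III, 6 adjacent windows over 8850 bp rose. They belong to *immp-1*, whose name refers to the inner mitochondrial membrane peptidase, *gbf-1*, a guanine nucleotide exchange factor of the Golgi, *mdt-21*, a Mediator subunit, *C24H11.5* and the chemoreceptor gene *srd-74*. The window of *srd-74* at chr III:11780500-11782199 had 2633, 2524 and 2785 normalized counts in *met-2*, against 1235, 1363 and 1392 in WT. Its log2FC was 0.99 (SE 0.059, adjusted p = 1.0e-20), a fold of 1.98, and the log2FC of all 6 windows lay between 0.90 and 0.99. In the *set-25* background no difference was called at *srd-74*, with 1365, 1227 and 1253 normalized counts in *met-2 set-25*, against 1450, 1303 and 1438 in *set-25* (log2FC -0.12, adjusted p = 0.11). The double mutant, which carries the same *met-2* allele, had a log2FC of -0.06 over WT at *srd-74* (adjusted p = 0.56). The interaction was -1.11 (SE 0.084, adjusted p = 9.3e-16). The other 9 windows within 20 kb were not called, and their log2FC ranged from -0.17 to 0.26, the highest at a second *gbf-1* promoter.

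A smaller step of the same shape was seen near the right end of chromosome V at *Y17D7C.1*, *Y17D7C.6* and *Y17D7C.2*, protein-coding genes with 5 called windows. *Y17D7C.6* at chr V:18708282-18709981 had 3876, 3831 and 4002 normalized counts in *met-2*, against 2578, 2544 and 2643 in WT (log2FC 0.59, SE 0.081, adjusted p = 1.5e-06). *Y17D7C.2* at chr V:18719762-18721461 had 4210, 4101 and 4033 in *met-2*, against 2932, 2806 and 2819 in WT (log2FC 0.53, SE 0.082, adjusted p = 3.4e-05). The change was opposite in the *set-25* background, where *Y17D7C.6* had 2483, 2296 and 2427 normalized counts in *met-2 set-25*, against 3185, 3137 and 3095 in *set-25* (log2FC -0.39, adjusted p = 0.00038). The *set-25* libraries therefore stood between those of *met-2* and WT, and the 4 genotypes did not overlap at this window. In edgeR's test against WT, however, neither *set-25* (log2FC 0.28, adjusted p = 0.59) nor *met-2 set-25* (-0.11, adjusted p = 0.41) was called. The interaction was -0.98 at *Y17D7C.6* (adjusted p = 1.2e-08) and -0.89 at *Y17D7C.2* (adjusted p = 3.3e-07). The 11 uncalled windows within 20 kb of *Y17D7C.6* had log2FC between -0.19 and 0.04.

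At *phkb-1* on chromosome IV, named for the beta subunit of phosphorylase kinase, WT stood apart from every mutant. Its window at chr IV:3220937-3222636 had 917, 902 and 890 normalized counts in *met-2*, against 1.60, 4.04 and 3.28 in WT, which were 1, 4 and 3 reads. The ratio of the summed counts of *met-2* to WT was 285 (95% exact interval 145 to 661, for counting error only), with an adjusted p of 6.6e-45. Both *met-2 set-25* and *set-25* had about the level of *met-2*, with means of 927 ± 21.6 and 961 ± 22.1 (SD, n = 3 each). Next to it, *Y67D8A.10* was also higher, with a log2FC of 2.03 (SE 0.085, adjusted p = 1.4e-28) and values between 975 and 1093 in *met-2*, against 236 to 274 in WT. The other 15 windows within 20 kb were not called, with log2FC from -0.19 to 0.11.

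**Figure D3:**
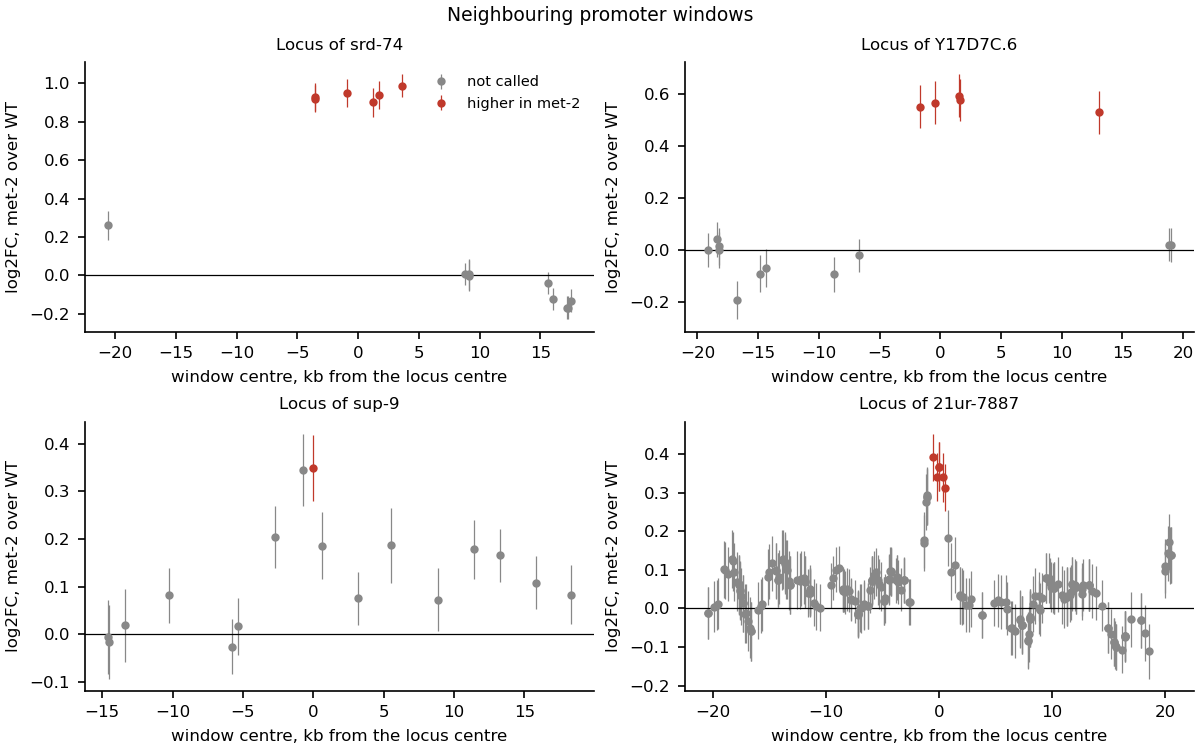
Log2FC of *met-2* over WT, with SE as bars, for all promoter windows within 20 kb of 4 loci, against the distance of the window centre from the locus centre in kb. Called windows rise as a block at *srd-74* (0.90 to 0.99) and at *Y17D7C.6*, and over a shorter stretch at *sup-9* and *21ur-7887*, where overlapping uncalled windows were also above 0.

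Most lower windows were in repeated genes, and the treatment of multi-mapping reads is not given in the sources used here. The strongest was a group of 8 windows in a histone gene cluster on chromosome II, with the histone genes *his-9*, *his-12*, *his-13*, *his-16*, *his-25* and *his-43* and the non-coding *ZK131.12* and *ZK131.13*. All 8 carry identical counts, each combined over 3 intervals, and count as 1 measurement (adjusted p = 5.2e-12). They held 0, 0 and 1 reads in *met-2*, against 17, 48 and 40 in WT, or 0, 0 and 0.963 normalized counts against 27.2, 48.5 and 43.8. The summed counts were 1 in *met-2* and 105 in WT, a ratio of 0.00738 (95% exact interval 0.000185 to 0.0420, for counting error only). *met-2 set-25* had 35.0, 49.3 and 35.0 normalized counts, against 40.8, 52.4 and 32.3 in *set-25* (log2FC -0.06, adjusted p = 0.86), so that the few reads were missing only in the *met-2* libraries. Of 63 windows of histone genes in all, the 6 of these genes were called (9.52%, against 0.0312% lower of all windows). These 6 carry identical counts, so that share is no result about the family. The median log2FC over the 63 windows was -0.08, against -0.00057 over all windows.

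On the left arm of chromosome V, *mct-1* and *mct-2*, which are named for the monocarboxylate transporters and share 1 set of counts over 2 intervals, fell to 212, 173 and 255 normalized counts in *met-2*, against 922, 871 and 889 in WT (log2FC -2.08, SE 0.092, adjusted p = 2.0e-27). The 2 other windows within 20 kb, of *Y19D10A.5* and *C01B4.8*, share 1 set of few counts and had a mean of 0.507 normalized counts in *met-2* and 3.76 in WT (log2FC -2.47, SE 1.30, adjusted p = 0.96). *srd-60*, a further chemoreceptor gene counted over 2 intervals, had 21.99, 21.29 and 32.76 normalized counts in *met-2*, against 115, 80.8 and 94.1 in WT (log2FC -1.91, SE 0.20, adjusted p = 2.7e-10). Both also stood low in *set-25*, at means of 248 ± 23.1 and 29.2 ± 5.21, but not in *met-2 set-25*, at 811 ± 22.4 and 93.2 ± 7.43 (SD, n = 3 each). The loss of *met-2* in the *set-25* background therefore went with higher counts, with log2FC of 1.71 at *mct-2* (adjusted p = 6.6e-23) and 1.67 at *srd-60* (adjusted p = 9.1e-09). At *irld-45*, a gene of the insulin/EGF-receptor L-domain family on the same arm (chr V:1646800-1648499), *met-2* had 918, 938 and 925 normalized counts, against 1583, 1621 and 1827 in WT (log2FC -0.86, SE 0.072, adjusted p = 4.8e-14). At *irld-45*, *met-2 set-25* and *set-25* also lay below WT, with means of 859 ± 58.9 and 950 ± 25.7 (SD, n = 3 each).

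*rrn-2.1*, the 1 called window of 19 at ribosomal RNA genes (5.26%, against 0.0312% lower of all windows), and *Y43F8C.5* made up the rest of the lower windows. Many of the 19 windows carry identical counts, so that share is no result about ribosomal RNA genes. *rrn-2.1*, part of the ribosomal RNA repeat at the right end of chromosome I, was among the windows with the most counts, with 96963, 104986 and 78004 normalized counts in *met-2*, against 119135, 133253 and 107191 in WT (log2FC -0.36, SE 0.051, adjusted p = 3.1e-06 from edgeR's quasi-likelihood test). The neighbouring *rrn-1.1* and *rrn-1.2*, with 1 shared set of counts, had a log2FC of -0.36 as well, which did not pass (adjusted p = 0.029). The range within each genotype at *rrn-2.1* was about as large as the difference between the means. The call was lost with edgeR's likelihood ratio test (adjusted p = 0.038) and with DESeq2 (0.54). At *rrn-2.1*, *set-25* was also lower than WT in the quasi-likelihood test (log2FC -0.34, adjusted p = 4.4e-05). There *met-2 set-25* was not called against WT (log2FC -0.06, adjusted p = 0.48), and it was higher than *set-25*, with a log2FC of 0.28. *Y43F8C.5* at chr V:19632433-19634132 is a protein-coding gene at a single place. It had 1231, 1257 and 1461 normalized counts in *met-2*, against 1770, 1652 and 1760 in WT (log2FC -0.39, SE 0.060, adjusted p = 2.9e-05). It was the only lower window without a called interaction (adjusted p = 0.014), although its log2FC in the *set-25* background was -0.01.

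**Figure D4:**
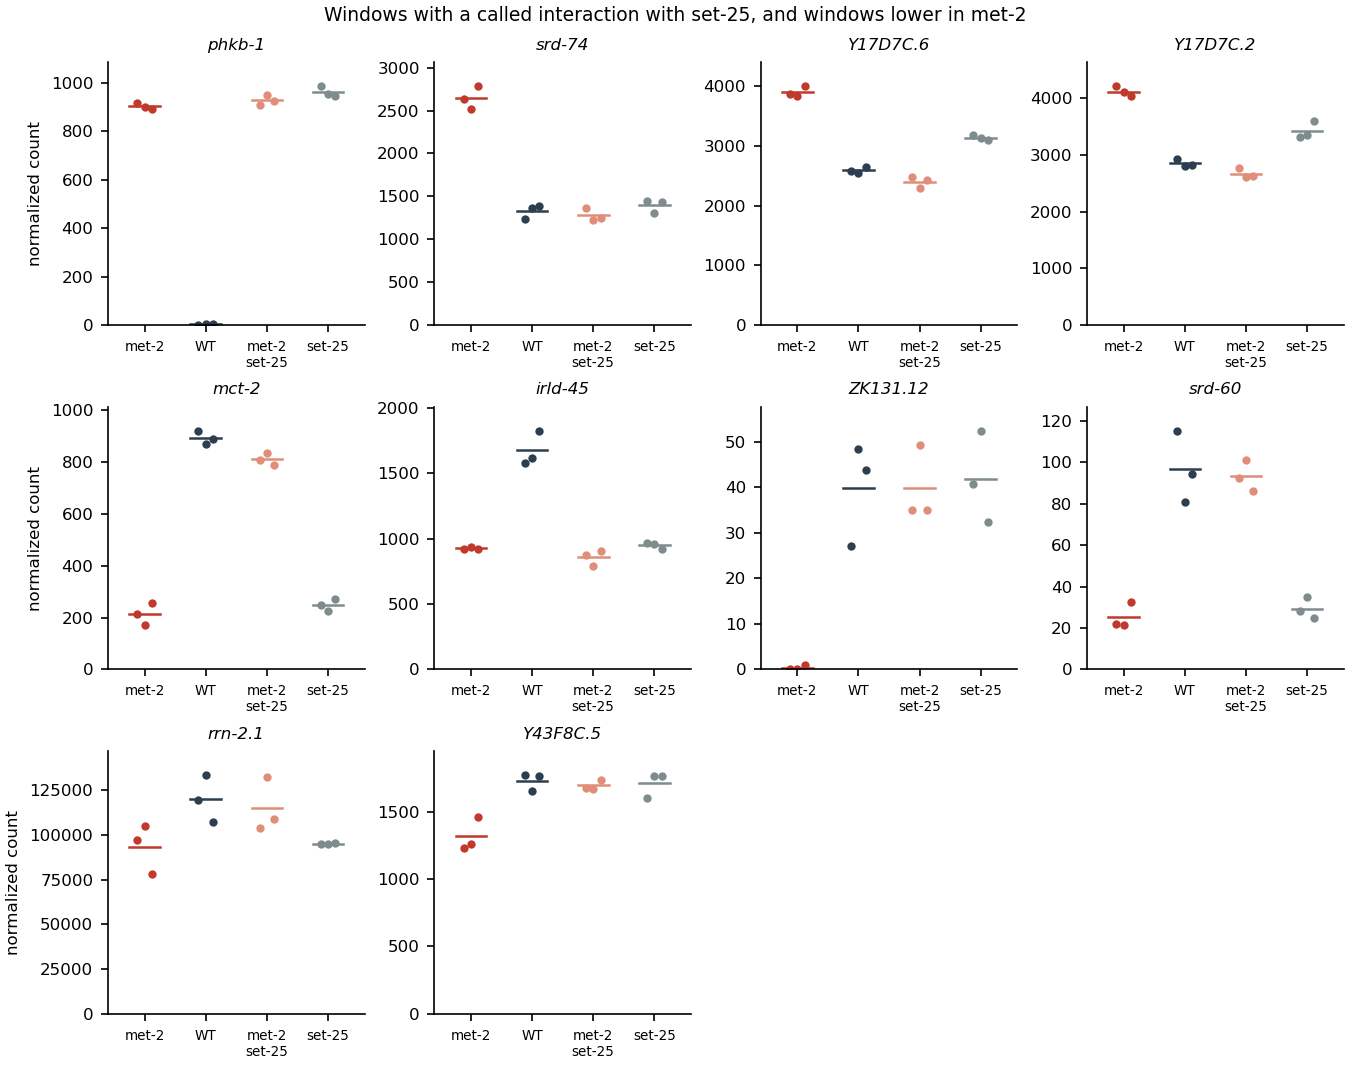
Normalized counts of the named windows that showed an interaction with *set-25* and of *Y43F8C.5*, for the 3 libraries of each genotype (points) with their means (lines), on y axes that start at 0. WT alone is set apart at *phkb-1* and *irld-45*, *met-2* alone at *srd-74*, *ZK131.12* and *Y43F8C.5*, and *met-2* with *set-25* at *mct-2* and *srd-60*. The *his-16* windows carry the same counts as *ZK131.12* and are not drawn.

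Just outside the threshold were *T06A10.107* on chromosome IV, *ttr-36* on X, of the transthyretin-like family, and *toca-2* on III, a regulator of actin assembly and endocytosis. They are described by their values, with log2FC of 0.29, 0.28 and -0.27 and adjusted p of 0.0102, 0.0128 and 0.0180. The gains nearest to the threshold on its inner side were *Y54G2A.65*, *F10E7.12* and *ncs-6*.

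No gene of the lists assembled for this comparison was called, neither among 14 genes of H3K9 methylation and its readers, 14 of small RNA silencing, 11 synMuv B and DREAM repressors and 21 germline genes, nor among the markers of the tissues. Of all windows, 0.0702% were called higher and 0.0312% lower. Lists of this size would hold few or no calls at such shares, so their absence is no result about these genes. At *met-2* itself the promoter window (chr III:8373728-8375427) had 1772, 1702 and 1882 normalized counts in *met-2*, against 1752, 1813 and 1931 in WT (log2FC -0.04, adjusted p = 0.98). The window is not known to overlap the deletion, and it therefore does not check the genotype. *set-25* had 522 ± 24.7 in *met-2* and 534 ± 37.8 in WT (SD, n = 3 each; log2FC -0.03, adjusted p = 0.99). Among the other genes of the pathway, *lin-13*, a zinc-finger repressor that acts with HP1, had a log2FC of 0.16 (adjusted p = 0.93), and *hpl-2*, an HP1 homolog, had -0.12 (adjusted p = 0.96). The list had a median log2FC of -0.04 over its genes, the small RNA list -0.02 and the synMuv B list -0.04.

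The study followed 7 genes that lose repression in these mutants, and their promoters were not called either. With 0.0702% of all windows called higher and 0.0312% lower, the lack of calls at so few promoters is no result about them. *sri-62*, a chemoreceptor gene, had 1680, 1813 and 1915 normalized counts in *met-2*, against 1456, 1563 and 1747 in WT (log2FC 0.18, SE 0.062, adjusted p = 0.73). The groups overlapped. *C23H5.12* had a log2FC of 0.15 (adjusted p = 0.92), and *pals-29* and *pals-30*, of a family tied to the response to intracellular pathogens, had 0.12 and 0.06 (adjusted p = 0.96 and 0.98). *Y6E2A.7*, *pgl-1*, a component of germ granules, and the F-box gene *fbxa-171* had 0.05, 0.03 and -0.01 (adjusted p of 0.98, 0.99 and 0.99). In all, 6 of the 7 lay above 0, with a median of 0.06, and the control genes *smg-5* and *unc-119* had 0.01 and -0.01. Of 17 transcription factors that the study tested or named by their motifs, the one with the smallest p, *madf-9*, had a log2FC of 0.17 (adjusted p = 0.96).

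The tissue labels were checked against marker promoters. Muscle markers had a median of 2062 normalized counts per gene in *met-2* and 1965 in WT, above the medians of the neuron (1577 and 1620), intestine (1490 and 1497), hypodermis (1641 and 1628), pharynx (1721 and 1774) and germline lists (1569 and 1575), and no marker was at 0 in any list. *myo-3*, the muscle myosin heavy chain whose promoter drives the reporter, had 393462, 407860 and 337607 normalized counts in *met-2*, against 354204, 397410 and 325021 in WT. The reporter array carries copies of this promoter, and its reads cannot be told apart from those of the endogenous gene. Its log2FC was 0.08 (adjusted p = 0.90), and the call moved with the libraries: it was made without *met-2* replicate 3 (adjusted p = 8.6e-05) and without WT replicate 2 (7.5e-05). Of the 30 muscle genes, 22 lay above 0, with a median log2FC of 0.05. *mup-2*, muscle troponin T, had 0.24 (adjusted p = 0.84), and *deb-1*, vinculin of the dense bodies, had -0.17 (adjusted p = 0.73) at the window with the smallest p of its 8, with a median of -0.06 over them. In the germline list the smallest p was that of *pie-1*, a repressor of transcription in the embryonic germline, with 1338, 1369 and 1516 normalized counts in *met-2*, against 1612, 1605 and 1613 in WT (log2FC -0.19, SE 0.060, adjusted p = 0.48). In the other lists these were *eat-4*, a glutamate transporter of neurons (-0.15, adjusted p = 0.80), *mtl-2*, an intestinal metallothionein (-0.08, 0.97), *elt-3*, a GATA factor of the hypodermis (0.14, 0.91), and *ceh-22*, a homeobox factor of the pharynx (0.12, 0.93). For genes with several windows these are values of the window with the smallest p, and the median over the 5 windows of *ceh-22* was 0.06.

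By position, 34 of the 36 higher and all 16 lower windows were on autosome arms, where 30111 of the 51278 windows lie. None was on X, which holds 6729 windows. Many of these windows overlap or share counts: they form 16 higher loci and, on the lower side, 7 distinct sets of counts. The 2 higher windows in the centres were those of *R12B2.7* and *F10E7.12*. The median log2FC was 0.002 on the arms and -0.015 in the centres. By chromosome the shifts were small, with a median of -0.03 on I, -0.004 on II, -0.035 on III, 0.001 on IV, 0.018 on V and 0.017 on X. The median log2 ratio to the WT mean on III was -0.045, -0.034 and -0.032 in the *met-2* libraries, against -0.017, -0.006 and 0.019 in WT, and on I it was -0.019, -0.028 and -0.049, against 0.0007, -0.006 and 0.002. On V it was 0.021, 0.013 and 0.014, against -0.005, -0.007 and 0.008. In these medians the genotypes did not overlap on these 3 chromosomes. Without adjustment, p was below 0.05 at 371 windows on III and 345 on I that were lower, against 58 and 53 that were higher, whereas on V it was so at 359 higher and 95 lower windows. The share of all counts on V was 17.95%, 17.98% and 17.66% in *met-2*, against 17.50%, 17.69% and 17.58% in WT, so that the genotypes overlapped. On III it was 10.2%, 10.3% and 10.2%, against 10.3%, 10.4% and 10.5%. Counts were scaled by column totals, so a lower share on some chromosomes goes with a higher share on others.

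**Figure D5:**
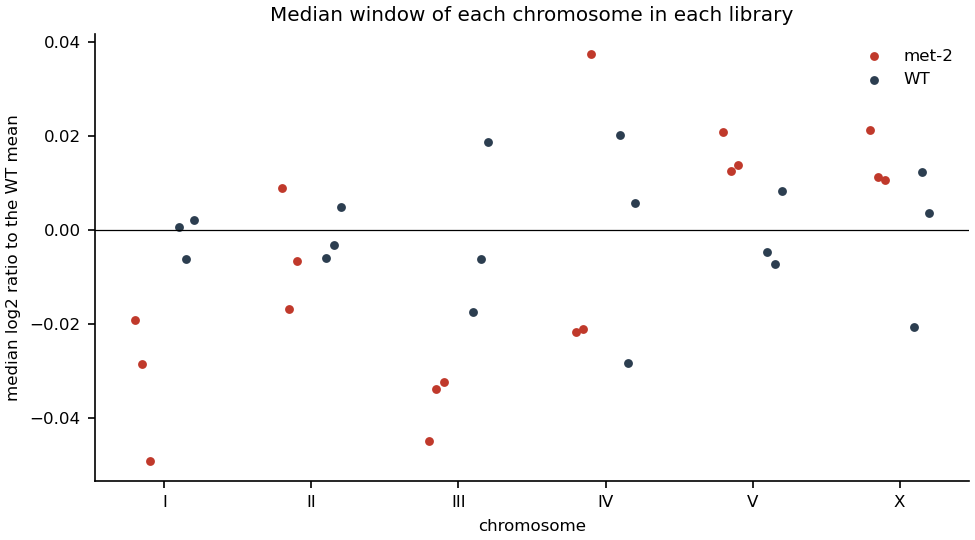
Median over the windows of each chromosome of the log2 ratio of a library to the WT mean, with 1 point per library of *met-2* and WT. The *met-2* libraries lie below the WT libraries on I and III and above them on V.

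Gene families that are often found in H3K9me domains moved little. Over 1460 chemoreceptor windows the median log2FC was 0.014, with 2 windows higher (*srd-74* and *srh-170*) and 2 lower (both of *srd-60*, with the same counts). This is 0.137% in each direction, against 0.0702% and 0.0312% of all windows. The 341 F-box windows had a median of 0.025 and the 94 windows of MATH and BATH genes one of 0.030, and no window of either was called. Without adjustment, p was below 0.05 at 9 higher and 0 lower MATH and BATH windows, and at 1188 higher and 1507 lower of all 51278 windows. Nuclear receptors (0.007 over 414 windows), C-type lectins (-0.014 over 276) and collagens (-0.0004 over 180) had no called window either. By biotype, 22 windows (0.0802%) were higher and 13 (0.0474%) lower of 27423 at protein-coding genes, and 7 (0.0957%) were higher and 2 (0.0273%) lower of 7317 at non-coding RNAs, against 0.0702% and 0.0312% of all windows.

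The loss of *met-2* was also read at the windows that it changed where *set-25* is absent. At the 3917 windows higher in *met-2 set-25* than in *set-25*, the median log2FC was 0.32 in that comparison and 0.05 in *met-2* over WT, with 3082 of them above 0. Of the 3917, 18 were called higher in *met-2* and 5 lower, where 0.0702% and 0.0312% of all windows were. By library, the median log2 ratio to the WT mean at these windows was 0.10, 0.12 and -0.08 in *met-2*, against -0.03, 0.10 and -0.07 in WT, so that the libraries overlapped and their order was that of the signal index within each genotype. Whether the index accounts for these values was not tested. At the 1934 windows lower in *met-2 set-25* than in *set-25*, the median was -0.25 in that comparison and -0.009 in *met-2* over WT, and 1076 lay below 0. The test of the difference itself, the interaction, was called at 42 of the 3917 and at 9 of the 1934 windows. Of all windows, 0.144% had a called interaction. Both sets were chosen by the difference of *met-2 set-25* from *set-25*, which is part of the interaction. This choice favours such calls, and it favours a larger median in that comparison than in *met-2* over WT.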

How the data were processed

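ATAC-seq counts of 3 *met-2* and 3 WT libraries of sorted muscle were compared, and 6 libraries of *met-2 set-25* and *set-25* entered the same fit. The authors deposited whole-number counts per promoter window (1500 bp upstream to 200 bp downstream of a start site, ce10), without normalization. According to the study's methods, reads were trimmed with cutadapt, aligned with bowtie2, cleared of duplicates with Picard and shifted for the Tn5 offset. Of the windows, 565 combine several intervals, and 51278 windows held 48831 distinct sets of counts. How reads with several places were counted is not given in the sources used here. Column totals are sums over windows, and the median count per window and library was 946 to 1959. Counting was not by strand, so overlapping windows share reads.

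Normalized counts are counts rescaled so that every column has the mean total. The main test was the quasi-likelihood F test of edgeR 4.0.16 (R 4.3.3) in 1 fit of 4 genotypes and 12 libraries, scaled by column totals, with no filter beyond a count above 0 and Benjamini-Hochberg adjustment over 51281 windows. SE is the log2FC divided by the square root of F. Log ratios per library used a pseudocount of 8. Scripts were tested on simulated data. Of the windows, 95.9% were matched to a gene by the RefSeq table of WBcel235, used for names and biotypes only. Arm borders of autosomes are those of the study. Per locus the window with the smallest p was named, for up to 20 higher and 10 lower loci, together with *met-2*, *set-25*, the study's followed and control genes and up to 3 members per list with the smallest p. The 13 gene lists and 14 families, and the comparison itself, were chosen with earlier results of these data known. Alternatives were TMM factors, DESeq2 1.42.0, the likelihood ratio test, filterByExpr, a replicate block, FDR 0.05, the signal index as a covariate, 1 window per distinct set of counts, only 6 libraries and leaving out each library. Sequences were not used here.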

Additional observations from a re-analysis of the deposited data

Results flagged for a closer look

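At 10 named windows the effect of *met-2* loss differed between animals with and without *set-25*, by the interaction term of the edgeR fit at FDR below 0.01. The interaction is the log2FC in the *set-25* background minus that of *met-2* over WT. It was -8.15 at *phkb-1*, -1.11 at *srd-74*, -0.98 at *Y17D7C.6* and -0.89 at *Y17D7C.2*. At these, *met-2* loss in the *set-25* background gave no called gain, or a lower count. It was 3.79 at *mct-2*, 0.71 at *irld-45*, 6.52 at *ZK131.12*, 3.57 at *srd-60* and 0.64 at *rrn-2.1*. With the same counts as *ZK131.12*, *his-16* also had 6.52. At these windows, *met-2* loss in the *set-25* background gave no called loss, or a higher count. At *phkb-1* and *irld-45*, *set-25* and *met-2 set-25* both stood near the level of *met-2*, and WT alone was set apart. Whether these windows differ through the named alleles or through other differences between the strains cannot be told apart here.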

How the results depend on the processing

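Of the 23 named loci, 12 were called under every alternative and none changed sign. The other 11 lost their call under at least 1. TMM factors gave 31 higher windows and DESeq2 42, and the median log2FC of all windows moved by 0.0022 with TMM. Adding the signal index to the fit gave 55 higher and 25 lower windows, of which 5 and 1 were called in the same direction in the *set-25* background. With 1 window per distinct set of counts, 7 windows were lower, by construction. DESeq2 called an interaction at 7 windows, and its own filter left the adjusted p of 27 of the windows called by edgeR empty, and 1 of its lower windows was also lower in *met-2 set-25*. Leaving out single libraries gave 24 to 47 higher and 16 to 18 lower windows, 7 to 29 higher and 0 lower windows that were also called in the *set-25* background, and 31 to 34 windows with an interaction. The difference in signal index ranged from -0.131 to 0.433 percentage points, and it was below 0 without WT replicate 3 (-0.0954), *met-2* replicate 1 (-0.0208) or *met-2* replicate 2 (-0.131).

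A replicate block gave 46 higher and 21 lower windows, and 40 and 19 in a fit of the 6 libraries alone, which was added after seeing the data. All 36 and all 16 calls were kept in both. The deviations of same-numbered *met-2* and WT libraries had correlations of -0.072, 0.366 and 0.290. *met-2* replicate 1 was closest to WT replicate 2 (0.231), whereas *met-2* replicates 2 and 3 were closest to the WT library of the same number. With so few libraries per genotype, these correlations cannot decide whether the numbers pair the libraries. *myo-3* was called with the block (adjusted p = 0.0085) and with the index covariate (2.1e-05), but not with the block in the fit of 6 libraries (0.12). Depth limits windows with few reads, such as the histone and *phkb-1* windows.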
